A study of Homo sapiens with 2 samples.

Results

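HTO_H cells are the droplets of a pooled PC9 run that carried the hashtag HTO_H and, of the 8 hashed populations, the fewest were recovered. PC9 is a line from a human non-small cell lung cancer, with a deletion in exon 19 of EGFR. A droplet barcode was counted as an HTO_H cell when HTO_H was its highest hashtag, with at least 10 unique molecular identifiers (UMIs, each of which stands for 1 tagged molecule) and at least 3 times the UMIs of the second highest hashtag, so the cells were chosen by their hashtag UMIs. This rule gave 926 HTO_H cells among 14011 cells of all 8 hashtags, out of 15324 deposited barcodes. The remaining 1313 barcodes met the rule for no hashtag and are called undecided here. A cell is thus a barcode chosen by its hashtags alone. The study also removed barcodes with few detected genes or RNA molecules, which was not done here. The 14011 therefore exceed the cells that the study kept, and the HTO_H share among those was not tested.

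The pool held 8 untreated populations, all grown in the same medium with serum and collected at 8 to 10 passages. PC9-VU and PC9-MGH are separately maintained versions of the line, and PC9-BR1 comes from PC9-VU cells that were taken through rising doses of the EGFR inhibitor afatinib, and it alone carries EGFR T790M. DS3, DS6, DS7, DS8 and DS9 are sublines, each grown from 1 PC9-VU cell after nuclear labeling. The labels do not say which population received HTO_H, so no lineage, drug response or genotype can be attached to these cells. Gene expression was not analysed here, and the label of the cells could be checked only through their hashtag counts.

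In cell hashing, cells of each sample are stained with antibodies against widely expressed surface proteins, and the DNA barcode on each antibody is called a hashtag oligonucleotide (HTO). The hashtag has a poly(A) tail and is captured in the droplet together with the mRNA, so the sample of origin can be read after pooling. The number of hashtag molecules on a cell depends on the abundance of the target proteins, the cell surface and the staining, while free hashtags in the suspension give a low count in every droplet.

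The HTO_H sequence is shown with those of the 4 hashtags that it is most often compared with below, as they were filed, 5′ to 3′. Capitals mark bases of another hashtag that equal the base of HTO_H at the same position.
HTO_H: ctcctctgcaattac
HTO_B: tgatggcctAtTggg
HTO_C: tTCCgCctCtcTTtg
HTO_D: agtaagTtCAgcgta
HTO_G: tgtCTtTcCtgccAg
All are synthetic, 15 bases long, and have no position in the genome. HTO_H has 7 G or C bases, and the other 7 hashtags have 6 to 8. HTO_H differs from its nearest neighbour, HTO_C, at 8 of 15 positions, and from HTO_E, the farthest, at 14. Over all 28 pairs of hashtags the differences also run from 8 to 14.

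The mRNA and HTO libraries came from the same droplets of a single run, so no value has a replicate and no test between hashtags was possible. Intervals are exact at 95%, binomial for shares, Poisson for counts and from order statistics for medians. They include no error but that of counting, and PCR copies among the reads are not independent. Over all 8 hashtags there were 81061884 reads and 22104678 UMIs, with medians of 3707 reads and 1379 UMIs per barcode. HTO_H accounted for 2363911 of these reads (2.92%) and 984915 of these UMIs (4.46%), the second smallest share of reads, after HTO_B with 2.50%, and the smallest share of UMIs.

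By the labels the pool was mixed to roughly similar proportions, so the first question was how many HTO_H cells there were. HTO_H cells made up 6.61% of the cells of all hashtags (6.20% to 7.03%), where an equal share would be 12.5%. Their number, 926 (867.3 to 987.6), was 52.9% of the 1751 cells of an equal share. The next smallest population, HTO_B, had 1457 cells, and HTO_A, HTO_F and HTO_G had 1667, 1689 and 1696. The most frequent were HTO_D with 1939, HTO_E with 2153 and HTO_C with 2484 cells. There were thus 0.636 HTO_H cells for each HTO_B cell (0.585 to 0.691) and 0.373 for each HTO_C cell (0.345 to 0.402). HTO_H was also the smallest population under each of the 6 alternative ways of choosing cells (1 of which removed no cell), but at a ratio of at least 10 the gap to the next smallest narrowed to 1.04 times, from 1.57 times. With single libraries, fewer cells pooled, fewer cells that survived staining and loading, and fewer cells stained well enough to be called cannot be told apart.

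**Figure D1:**
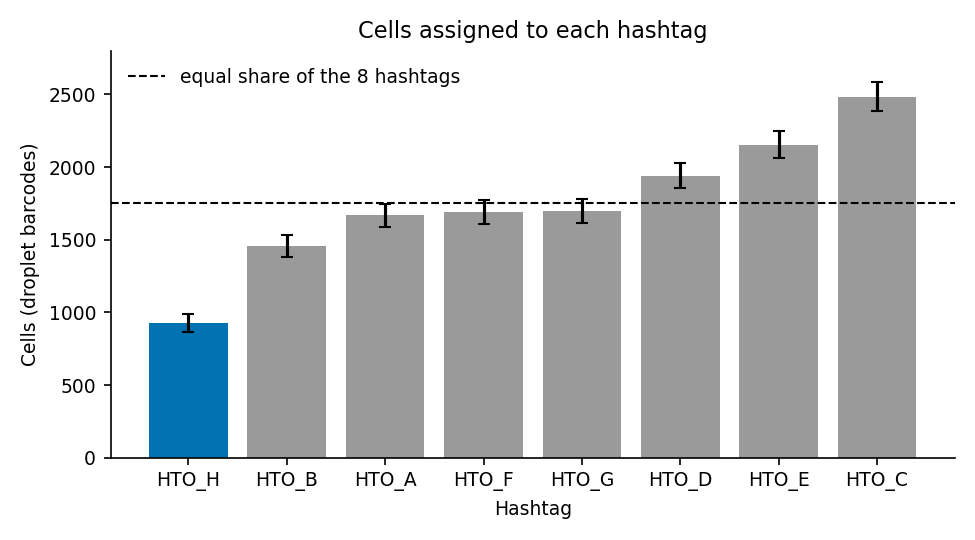
Number of cells (y axis, droplet barcodes) that the rule assigned to each hashtag (x axis), ordered by number, with exact 95% Poisson intervals as error bars and HTO_H in blue. The dashed line marks an equal share of 1751 cells, and HTO_H lies lowest with 926.

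Because a weakly stained population could lose cells to the rule, the barcodes that HTO_H cells could have been lost to were counted. HTO_H was the highest hashtag in 983 barcodes, and 57 of these (5.80%, 4.42% to 7.45%) did not reach 3 times the second hashtag. For the other hashtags this share ran from 3.83% for HTO_B to 11.8% for HTO_D, and the HTO_H interval overlapped those of HTO_B, HTO_C, HTO_E and HTO_F. Of the 57, 8 had under 200 HTO_H UMIs and 49 had more. The minimum of 10 UMIs removed no barcode of any hashtag.

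HTO_H was among the 2 highest hashtags of 159 undecided barcodes, with the higher count in 57 and the lower one in 102. Its partner was most often HTO_E (35 barcodes) or HTO_C (33) and least often HTO_D (14), HTO_B (15) or HTO_G (16). Against HTO_G, the brightest hashtag, HTO_H had the higher count in 1 of 16, and against HTO_D in 10 of 14. In its own cells HTO_D was brighter than HTO_H, with a median of 1393 UMIs. Outside them it had the highest median, 30 UMIs, and whether all 14 barcodes held 2 labelled cells was not tested. In these 159 barcodes HTO_H had a median of 863 UMIs (797 to 921), which lay above the 719.5 of the HTO_H cells. The rule shapes this difference, because a mixed droplet with little HTO_H is assigned to its partner and is not undecided. The 863 therefore does not give the level of all HTO_H cells in mixed droplets.

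HTO_H was also the least frequent hashtag by a limit without any ratio. At least 100 HTO_H UMIs were present in 1131 barcodes, or 7.38% of all (6.97% to 7.81%), whatever their other hashtags. For the other hashtags this number ran from 1834 for HTO_B to 2926 for HTO_C. Of the 1131 barcodes, 926 were HTO_H cells, 161 were undecided and 44 were cells of another hashtag.

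Barcodes at the bottom of the staining range were also examined. Of all 15324 barcodes, 148 had fewer than 100 UMIs of their highest hashtag and all were undecided. HTO_H was the highest hashtag in 2 of the 148, and HTO_D, whose median outside its own cells was the highest, in 91. The 148 barcodes had a median of 322.5 hashtag UMIs in all and 18 HTO_H UMIs, and 29 of them had 25 or more HTO_H UMIs. In cells of the other hashtags the 99th percentile was 24 HTO_H UMIs. Those cells are no like measure, because each class had a median of only 118 to 143 UMIs outside its own hashtag. Whether the 29 were stained with HTO_H was not tested.

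HTO_H was the second dimmest hashtag in its own cells. The levels chose the cells and are therefore given as a description. The median HTO_H cell had 719.5 HTO_H UMIs (693 to 750), with 120 in the lowest cell and 2459 in the highest. In reads the median was 1466.5 (1394 to 1561), from 185 to 15186. HTO_B cells had a lower median of their own hashtag, 338 UMIs and 617 reads. The medians of the other 6 hashtags lay above HTO_H, from 1193 UMIs and 3258 reads for HTO_E to 1554.5 UMIs and 5638.5 reads for HTO_G. HTO_G thus stood 2.16 times above HTO_H in UMIs and 3.84 times in reads. Leaving out HTO_B, the 6 medians were 1.66 to 2.16 times that of HTO_H in UMIs and 2.22 to 3.84 times in reads.

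The HTO_H distribution overlapped all others. Of the HTO_H cells, 90.6% (88.5% to 92.4%) lay below the lower quartile of HTO_G cells in UMIs, and 50.6% (47.4% to 53.9%) below that of HTO_D cells. A share of 4.21% of HTO_H cells exceeded the HTO_G median, and 12.0% exceeded the HTO_E median. Relative to HTO_B the order was turned, and 85.4% of HTO_H cells (83.0% to 87.6%) were above the HTO_B median. The values in reads differed from those in UMIs by less than their intervals, with 90.8% below the lower quartile of HTO_G and 84.3% above the median of HTO_B.

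**Figure D2:**
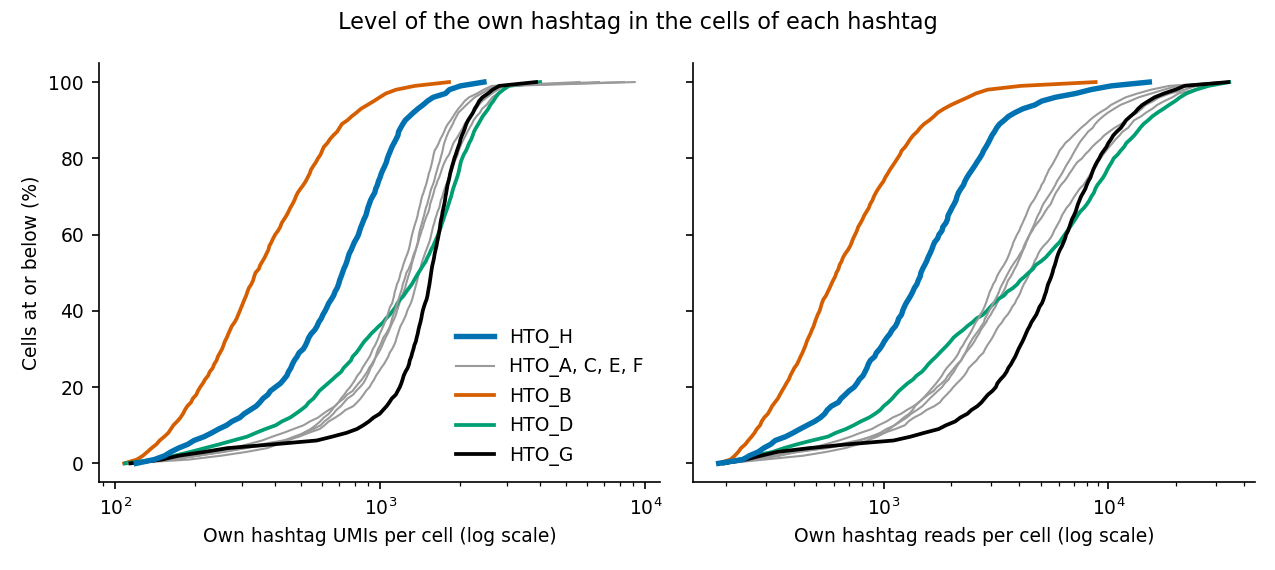
Share of cells (y axis, %) with at most a given number of their own hashtag's UMIs (left x axis) or reads (right x axis, both log scales), by percentile, for cells of each of the 8 hashtags. HTO_H (blue) runs between HTO_B, at a median of 338 UMIs, and the other 6, at medians of 1193 to 1554.5 UMIs.

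The HTO_H cells were spread more widely than most classes. The 75th percentile of HTO_H UMIs, 997.5, was 2.17 times the 25th, 459.25. The same ratio was 2.68 for HTO_D and 2.28 for HTO_B, and it ran from 1.44 for HTO_G to 1.82 for HTO_F in the others. Between the 10th percentile, 263 UMIs, and the 90th, 1242, HTO_H spanned 4.72 times, second to HTO_D with 5.92 times. On the log2 scale the SD over HTO_H cells was 0.88, again second to HTO_D with 1.05, and the others had 0.74 to 0.84. Of the HTO_H cells, 76.7% were within 2-fold of their median, compared with 91.2% for HTO_G and 73.5% for HTO_D.

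In reads the rank of HTO_H changed. The ratio of the 75th to the 25th percentile was 2.79, which lay among the lower values, with 2.32 for HTO_G and 6.18 for HTO_D. HTO_A, HTO_C and HTO_F, which were narrower than HTO_H in UMIs, were wider in reads, at 3.40, 2.94 and 3.12.

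Most HTO_H cells formed 1 broad group. From 400 to 600 UMIs there were 170 cells (18.4%), from 600 to 800 there were 185 (19.98%), and from 800 to 1000 there were 157 (17.0%). A further 182 cells (19.7%) had 1000 to 1500 UMIs, and 48 had more than that. Below the centre, 127 cells (13.7%) had 200 to 400 UMIs and 57 (6.16%) had 100 to 200. No separate low group was seen in these bins, but their widths differ and they are too wide to show a narrow one. In finer steps there were 17 cells from 100 to 150 UMIs, 40 from 150 to 200 and 29 from 200 to 250. Whether these form a group was not tested.

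The low tail was then set against the median of each class. A total of 41 HTO_H cells (4.43%, 3.20% to 5.96%) had less than 25% of the HTO_H median, that is, under 179.9 UMIs. Among the 802 HTO_H cells at a ratio of at least 10 to the second hashtag, a condition that removes dim cells, the share below 25% of their median was 1.12%. The shares for HTO_A, HTO_C, HTO_F and HTO_G, 4.92%, 5.11%, 4.09% and 5.01%, lay within the interval of the 4.43%. HTO_D had a larger tail, 8.30% (7.11% to 9.62%), and HTO_E had 2.74% (2.09% to 3.52%). HTO_B had 0 of 1457 cells, which allows a share of up to 0.206% when 3 cells are taken as the limit of a count of 0 (exact upper bound 0.253%), but its limit of 84.5 UMIs lay below its lowest cell. Below 50% of the median, HTO_H had 17.0% of its cells (14.6% to 19.5%), between HTO_D with 23.4% (21.5% to 25.4%) and HTO_C with 14.3% (12.9% to 15.7%).

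At a fixed level the tail of HTO_H was longer than that of the brighter hashtags. Under 200 UMIs of their own hashtag there were 6.16% of HTO_H cells (4.70% to 7.90%), compared with 1.21% for HTO_E to 3.61% for HTO_D and with 17.4% for HTO_B. This limit was chosen after the data were seen. The share under it also depends on the median, which was lower for HTO_H, so it does not describe the shape of the tail.

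The rule itself limits the lower end of the tail. In HTO_H cells the second hashtag had a median of 31 UMIs, so the ratio asked for a median of 93 HTO_H UMIs, and for 180 at the 95th percentile of the cells. The lowest HTO_H cells had 120, 121 and 128 UMIs, and the lowest cell of each of the other hashtags had 108 to 122. Because these ends nearly coincide in UMIs, they lie closer to the median of a dim hashtag. The lowest HTO_H cell had 16.7% of the HTO_H median, and the lowest HTO_G cell, at 114 UMIs, had 7.33% of the HTO_G median. There were 17 HTO_H cells under 150 UMIs, 40 from 150 to 200 and 29 from 200 to 250. Just inside the limit on the ratio were HTO_H cells at 3.15, 3.22 and 3.26 times the second hashtag, with 214, 164 and 140 HTO_H UMIs. Just outside were barcodes at 2.94, 2.92 and 2.89 times, with 1518, 327 and 2043.

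The 41 low cells were also described by what else they held. They had a median of 157 HTO_H UMIs (142 to 162) and 255 HTO_H reads (244 to 278). Their UMIs of the other 7 hashtags, a median of 131 (117 to 142), were as many as in the other 885 HTO_H cells, 135 (133 to 137), within the intervals. Sequences that matched no hashtag were fewer in number, with 17 UMIs (14 to 20) against 30 (29 to 31). The 41 were chosen for few HTO_H UMIs and have smaller totals, so this does not mean a smaller share, which was not computed. None of the 41 was the smaller of 2 barcodes that differ at 1 base, a pair that can arise from a single droplet. Among the other 885 only 1 was, so this count does not set the 41 apart. HTODemux, the demultiplexing function of Seurat that the study used, called all 41 HTO_H singlets, and 847 of the other 885.

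Away from its own cells, HTO_H had the lowest level of all hashtags. In the 13085 cells of the other hashtags the median was 8 HTO_H UMIs and 13 reads. The medians of the other hashtags outside their own cells were 10 UMIs for HTO_F, 13 for HTO_G, 18 for HTO_E, 19 for HTO_A, 20 for HTO_B, 24 for HTO_C and 30 for HTO_D. HTO_H was at 0 in 156 of the 13085 cells, and its 95th and 99th percentiles were 17 and 24 UMIs. Its median was 8 UMIs in the cells of 6 hashtags and 9 in HTO_G cells.

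The low level elsewhere offset the low level in the own cells. The median of HTO_H cells was 89.9 times the median elsewhere in UMIs, the third highest value after HTO_F with 125.4 and HTO_G with 119.6. HTO_A followed with 73.7, and HTO_B, the other dim hashtag, had 16.9. In reads HTO_H stood at 112.8 times, close to HTO_E with 112.3, and below HTO_G, HTO_F and HTO_A.

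Few cells of the other hashtags had HTO_H counts between their usual level and that of HTO_H cells. The rule itself keeps most HTO_H cells out of this range, since it asked them for a median of 93 HTO_H UMIs. Undecided barcodes are not counted here. Of the 13085 cells of other hashtags, 11 had 32 to 63 HTO_H UMIs and 13 had 64 to 127, and 36 had 128 or more. In all, 44 had at least 100, which is 0.336% (0.244% to 0.451%), and the highest count was 903, in an HTO_F cell. HTO_H was the second hashtag of 54 such cells, most often in HTO_C and HTO_F cells with 13 each and in none of the HTO_B cells.

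**Figure D3:**
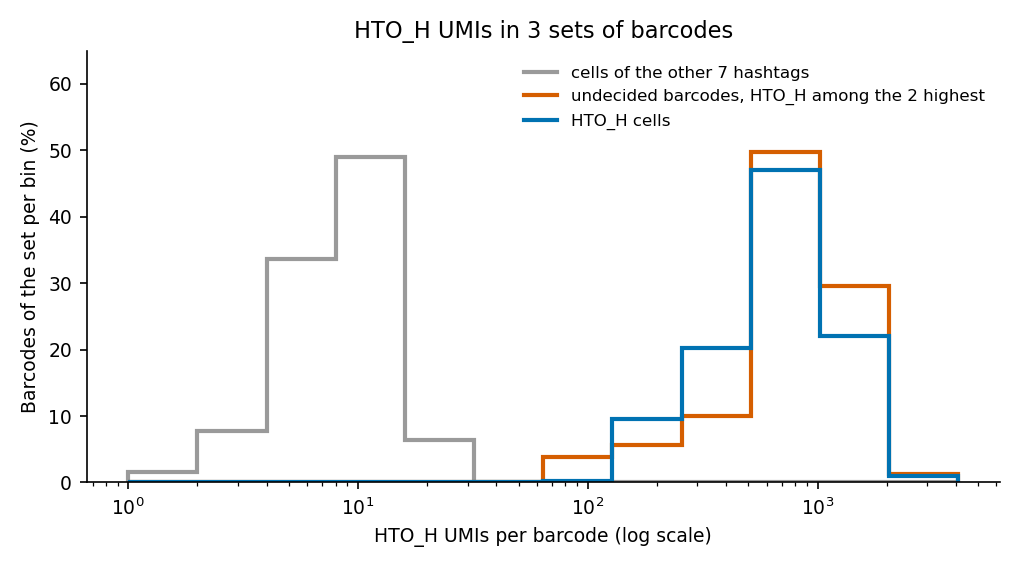
HTO_H UMIs per barcode (x axis, log scale, each bin 2 times as wide as the one before) as a share of each set of barcodes (y axis, %): HTO_H cells (blue), undecided barcodes with HTO_H among their 2 highest hashtags (orange) and cells of the other 7 hashtags (gray). The gray set peaks from 8 to 16 UMIs and the blue set from 512 to 1024. The 156 barcodes at 0 HTO_H UMIs and the other undecided barcodes are not drawn.

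By set, 71.4% of all HTO_H UMIs lay in HTO_H cells, 15.9% in undecided barcodes and 12.7% in cells of the other hashtags. For HTO_B the share in the own cells was 57.8%, and for the other 6 it was 75.9% to 79.7%. In reads, 75.5% of HTO_H lay in its own cells and 8.81% in cells of the other hashtags.

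The other hashtags were at the same level in HTO_H cells as elsewhere. HTO_D had a median of 28 UMIs in HTO_H cells, and 28 to 32 in the cells of the remaining hashtags. HTO_C had 24, against 23 to 25, and HTO_B had 20, against 19 to 22. HTO_A, HTO_E, HTO_F and HTO_G, with 19, 18, 10 and 12 UMIs, were also inside their ranges elsewhere. HTO_D was the second hashtag in 555 of the 926 HTO_H cells (59.9%, 56.7% to 63.1%), and in 61.1% (60.0% to 62.1%) of the 8662 cells of HTO_A, HTO_B, HTO_E, HTO_F and HTO_G. HTO_C was second in 200 HTO_H cells (21.6%, 19.0% to 24.4%), and in 22.5% (21.6% to 23.4%) of the same 8662 cells.

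The share of other hashtags was larger in HTO_H cells than in most classes. The other 7 hashtags together had a median of 135 UMIs in HTO_H cells (133 to 137), within the 118 to 143 of the other classes. As a share of a cell's hashtag UMIs this was a median of 15.5% (14.9% to 16.1%). HTO_B cells had 25.7%, and the other 6 classes had 7.76% to 9.58%. In reads the share was 12.9% for HTO_H, and 3.84% to 5.96% for those 6. HTO_H cells had their hashtag at a median of 23.0 times the second one (21.9 to 24.3), compared with 11.2 times for HTO_B and 36.9 to 48.0 times for the others.

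The cells were also split into 4 groups of nearly equal size by their HTO_H UMIs. From the lowest group, 120 to 459 UMIs, to the highest, 998 to 2459 UMIs, the median rose from 303 to 1181 UMIs by construction. UMIs of the other 7 hashtags moved little, with medians of 128, 127, 138 and 139.5. Unmatched sequences, as numbers and not as shares, went from 21 UMIs in the lowest group to 42 in the highest (intervals 19 to 22 and 41 to 44). The share of other hashtags accordingly went from 28.2% to 10.3%, and the ratio to the second hashtag from 11.1 to 37.6. Over the 926 cells the log2 numbers of HTO_H UMIs and of other UMIs had a Pearson correlation of 0.25 (Spearman 0.23), and both share the capture of the same droplet. The same Pearson values were 0.17 for HTO_B and 0.34 to 0.46 for the other 6.

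Sequences that matched no hashtag were not in excess in HTO_H cells. They made up a median of 3.38% of all UMIs of an HTO_H cell (3.28% to 3.46%), and 2.95% (HTO_E) to 5.61% (HTO_B) in the other classes. In reads the share was 2.21%, between 1.28% for HTO_G and 4.15% for HTO_B.

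HTO_H molecules were each read fewer times than those of the brighter hashtags. HTO_H had 2.54 reads per UMI in its own cells, compared with 2.04 for HTO_B and 3.48 to 4.66 for the others. The median over HTO_H cells was 2.05 (2.03 to 2.09). In the 13085 cells of the other hashtags HTO_H had 1.67 reads per UMI, a ratio of sums. These include the 44 cells with at least 100 HTO_H UMIs, and whether HTO_H was free there was not tested. The value rose through the 4 groups of HTO_H cells, from 1.78 to 1.96, 2.21 and 3.19.

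At matched numbers of reads the difference to the other hashtags was small. The 104 HTO_H cells with under 500 HTO_H reads had 1.70 reads per UMI, inside the 1.63 to 1.72 of the other classes. The 324 cells with 1000 to 2000 reads had 2.06, inside 2.05 to 2.11, and the 242 cells with 2000 to 4000 reads had 2.51, inside 2.49 to 2.68. The 47 cells with 4000 to 8000 reads had 3.62, inside 3.56 to 3.72. In the 21 cells with at least 8000 reads HTO_H had 5.18, below the 5.68 to 6.18 of the 6 other hashtags with at least 20 such cells, whose reads reached higher. These 21 cells, 2.27% of the class, held 12.2% of the HTO_H reads of HTO_H cells and 5.99% of the UMIs.

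**Figure D4:**
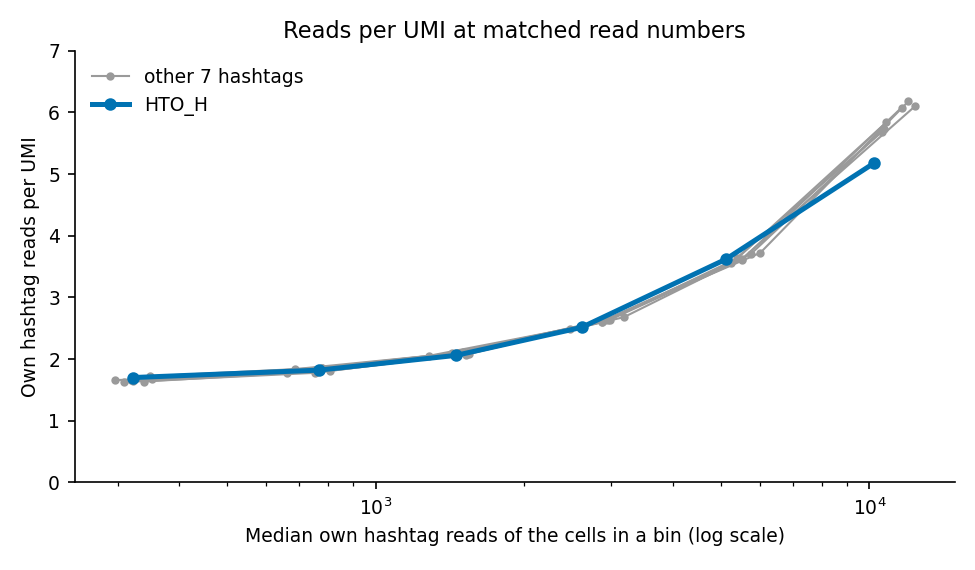
Reads per UMI of the own hashtag (y axis) against the median reads of the cells in each of 6 read bins (x axis, log scale), for HTO_H cells (blue) and those of the other 7 hashtags (gray), where a bin held at least 20 cells. HTO_H runs with the others from 1.70 to 3.62 and lies at 5.18 in the last bin.

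Other ways of assigning cells were compared cell by cell. Reads and UMIs are counts of the same molecules, and HTODemux used the same UMIs, so neither alternative is an independent check. With the same rule on reads, 924 of the 926 HTO_H cells were chosen again, 2 were undecided, and 7 further barcodes were added. HTODemux kept 888 as HTO_H singlets, called 38 multiplets and none negative, and added 13 barcodes. The 38 multiplets had a median of 252.5 UMIs of other hashtags (201 to 283), against 134 (132 to 135) in the 888, and a median of 898 HTO_H UMIs (675 to 1024). They were 4.10% of the HTO_H cells (2.92% to 5.59%), and the same share was 4.94% for HTO_B and 6.87% to 8.14% for the other 6.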

How the data were processed

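Hashtags from a single pooled 10x Genomics run (version 2, 3′ counting) were counted by the authors with CITE-seq-Count and deposited as raw counts, 1 matrix of reads, filed under the mRNA library, and 1 of UMIs, filed under the HTO library. Both list the same 15324 droplet barcodes. The CITE-seq-Count version, the mismatches allowed and the choice of barcodes are not given in the sources used here. No genome was needed.

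The 8 hashtags were used without the unmapped row, which entered only the shares of unmatched sequences. Cells were assigned by the rule given above, a minimum of 10 UMIs and a ratio of 3 to the second hashtag. This was done in Python 3.11.15 with numpy 2.4.6 and scipy 1.17.1, and figures were made with matplotlib 3.10.9. The rule was also run on simulated barcodes, with levels drawn from cells that it had already chosen. Mixed and unstained droplets were not simulated, so that run checked the code and not the accuracy of the assignment. HTODemux (Seurat 5.3.0, R 4.3.3, centered log ratio over each hashtag, positive quantile 0.99, seed 42) was an alternative. In the main rule doublets were treated only through the ratio, HTODemux calls multiplets from hashtags, and no doublet caller based on genes was run. HTO_H and the measures were chosen with earlier results of these data known. All 8 hashtags were compared, no droplet barcode is named, and no p-value was computed, since cells of 1 run are not replicates.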

Additional observations from a re-analysis of the deposited data

How the results depend on the processing

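A value is said to move when it leaves the interval of the value reported above. Of 67 values under alternatives, 44 stayed inside. No paired analysis was possible because no result comes from a test and both libraries come from the same droplets. The minimum of 100 UMIs removed no cell, so its values for the 9 results could not move, and they are among the 44. A ratio of at least 10, which removes dim cells by construction, gave 802 HTO_H cells with medians of 772.5 UMIs and 1629 reads, a spread of 1.92 times, a low tail of 1.12%, a share of other hashtags of 14.4% and 2.57 reads per UMI. HTODemux moved the low tail to 5.99% and reads per UMI to 2.543, which was 2.547 with a ratio of 2 and 2.552 with the rule on reads. The cause was not tested for these. The interval of reads per UMI, 2.533 to 2.542, treats reads as independent and leaves out the spread between cells. From the 5th to the 95th percentile of HTO_H cells the value ran from 1.64 to 3.41, so these moves are small beside that spread. Other summaries differ by construction. Means were 759.9 UMIs and 1928 reads in HTO_H cells and 9.55 HTO_H UMIs elsewhere. The low tail was 7.02% in reads, 16.95% under 50% of the median, 0% under 10% (0 of 926 cells, which allows up to 0.324% at 3 cells, with an exact upper bound of 0.398%) and 6.16% under 200 UMIs, the last chosen after seeing the data. The spread was 2.79 times in reads and 4.72 times for the 90th over the 10th percentile, the share of other hashtags 12.9% in reads, and reads per UMI 2.05 as a median over cells and 2.51 in cells with 2000 to 4000 reads. With a median of 719.5 UMIs per cell, counting error is small beside the spread between cells, and the single run limits the comparison.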

Other observations

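Droplet barcodes that differ at 1 base formed 129 pairs, and 1 HTO_H cell was the smaller barcode of such a pair, which is 0.108% of the HTO_H cells (exact binomial 95% interval 0.00273% to 0.600%). For the other hashtags the number ran from 5 HTO_B cells (0.343%, 0.112% to 0.799%) to 37 HTO_D cells (1.91%, 1.35% to 2.62%). Leaving out these smaller barcodes gave an HTO_H share of 6.66% of the cells, against 6.61% with them.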
